A study of Mus musculus with 18 samples.

Results

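Ddx4, Tmem26, Car12, Hivep3, Mtmr7, Dab2, Emp1 and Fgfr1 are 8 of the 54446 genes measured in mouse eosinophils cultured with apoptotic cells (ACs). They were picked by symbol because their transcripts were higher with IL-4 + ACs than with ACs alone. All 8 were found in the table by their Ensembl identifiers. Eosinophils labelled C57BL/6 were washed from the peritoneum of Il5Tg mice. These overproduce IL-5, and every group carried the transgene. All 18 libraries received ACs, wild-type thymocytes driven into apoptosis by dexamethasone, at 5 ACs per eosinophil for 18 h. In the Type 1 experiment the cells had IFN-γ, E. coli, both or neither beside ACs. In the IL-4 experiment they had IL-4 or nothing beside ACs. Each of these 6 groups held 3 libraries. The methods state that the cells were selected again on anti-Siglec-F beads before RNA was extracted for CEL-Seq2, a method that reads transcripts at their 3′ ends. The methods describe the experiments as biological replicates, but the labels do not tie a library to a mouse. Cells with IL-4 and no ACs are not analysed here, so the values hold for IL-4 in the presence of ACs.

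IL-4 binds a receptor built on IL-4Rα, whose JAK kinases phosphorylate STAT6. STAT6 then enters the nucleus and binds a palindromic DNA element with an unusually wide spacer, whereas most other STAT proteins bind the same arms with a shorter one. The pathway is best known for type 2 products such as chitinase-like proteins, CCL17 and CCL24. The 8 genes described here have varied roles, and the paper links Car12, Hivep3 and Dab2 to alternatively activated macrophages. It also lists Ddx4 among the transcripts raised by IL-4 with ACs in both eosinophils and macrophages. Ddx4 (Vasa) is an RNA helicase of germ cells, and Hivep3 is a large zinc finger transcription factor. Car12 and Mtmr7 are enzymes acting on carbon dioxide hydration and on inositol lipids. Tmem26 and Emp1 are multipass membrane proteins, Dab2 is a clathrin adaptor, and Fgfr1 is a receptor tyrosine kinase.

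Promoter windows from RefSeq (GRCm38.p6), each of 300 bases running from 250 bases before a transcript start to 50 after it, were held for 6 of the 8 genes. These gave 8 windows, and Mtmr7 and Fgfr1 had none. The windows below are shown because they hold the letters TTCNNNNGAA, the spacing that STAT6 prefers, or TTCNNNGAA, the usual STAT spacing. Each motif is its own reverse complement, and the 2 motifs cannot be the same match because their spacers differ. Matches are in capitals, and every line runs 5′ to 3′ on the gene's own strand. The Tmem26 window lies at chr10:68723496-68723795 (+) and the Hivep3 window at chr4:119814428-119814727 (+). The Dab2 window lies at chr15:6299539-6299838 (+) and the Emp1 window at chr6:135362681-135362980 (+).
Tmem26: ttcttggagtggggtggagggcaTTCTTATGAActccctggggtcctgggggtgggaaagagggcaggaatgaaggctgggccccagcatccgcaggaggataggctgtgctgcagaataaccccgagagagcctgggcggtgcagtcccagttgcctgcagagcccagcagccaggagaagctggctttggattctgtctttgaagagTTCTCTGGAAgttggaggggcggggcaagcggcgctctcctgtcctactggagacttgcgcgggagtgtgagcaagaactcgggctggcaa
Hivep3: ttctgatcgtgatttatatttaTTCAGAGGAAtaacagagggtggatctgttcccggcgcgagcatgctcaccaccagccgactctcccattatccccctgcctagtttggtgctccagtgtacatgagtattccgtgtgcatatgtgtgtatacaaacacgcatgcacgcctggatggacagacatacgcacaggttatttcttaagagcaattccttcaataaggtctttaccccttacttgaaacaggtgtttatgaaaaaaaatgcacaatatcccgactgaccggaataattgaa
Dab2: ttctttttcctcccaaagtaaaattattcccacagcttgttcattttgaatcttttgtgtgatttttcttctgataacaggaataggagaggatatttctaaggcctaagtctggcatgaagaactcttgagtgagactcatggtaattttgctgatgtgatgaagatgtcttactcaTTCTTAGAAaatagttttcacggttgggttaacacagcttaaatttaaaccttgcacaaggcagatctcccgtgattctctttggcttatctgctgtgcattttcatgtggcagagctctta
Emp1: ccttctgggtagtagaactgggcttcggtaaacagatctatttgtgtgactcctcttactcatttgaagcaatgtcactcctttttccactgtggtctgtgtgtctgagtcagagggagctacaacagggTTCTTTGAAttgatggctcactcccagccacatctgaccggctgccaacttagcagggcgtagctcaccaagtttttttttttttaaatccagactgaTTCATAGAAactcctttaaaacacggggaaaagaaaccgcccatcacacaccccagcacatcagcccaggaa

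TTCNNNNGAA was found in the windows of Tmem26 and Hivep3, and 6.95% of 32851 promoter windows of this length hold it. Tmem26 had it with its first base 227 and 41 bases before the start, and Hivep3 had it 228 bases before the start. The Hivep3 window lies inside the gene, whose annotated span begins at chr4:119733784, so its start is an internal one. The Emp1 window also lies inside its gene, whose span begins at chr6:135362545. For Tmem26 the span begins at chr10:68723646, within the window and before the start used here. Use of these starts in these cells was not tested. TTCNNNGAA was found in a window of Dab2, 72 bases before the start, and in a window of Emp1, 120 and 22 bases before the start; 8.3% of all windows hold it. The windows of Ddx4 and Car12, and the other window of Dab2 and of Emp1, held neither. A match is a description of these letters and says nothing of binding.

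The Ddx4 window, at chr13:112652261-112652560 (-), is shown for its base composition, with every CpG in capitals. It had 72.0% G and C and 38 CpG dinucleotides, more than 95% of all windows, against a median of 52.67% and 7 CpG.
Ddx4: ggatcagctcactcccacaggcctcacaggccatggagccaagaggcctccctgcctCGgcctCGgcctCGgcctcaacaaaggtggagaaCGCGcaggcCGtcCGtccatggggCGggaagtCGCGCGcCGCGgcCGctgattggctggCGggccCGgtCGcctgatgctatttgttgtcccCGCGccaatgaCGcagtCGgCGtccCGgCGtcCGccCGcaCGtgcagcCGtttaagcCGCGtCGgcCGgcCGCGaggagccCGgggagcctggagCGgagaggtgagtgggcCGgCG

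Values are the authors' normalized counts, that is, reads scaled by a library size factor. Reads on genes ranged from 779421 to 7782072 per library. In the IL-4 experiment both libraries numbered 3 were shallow, at 779421 reads with ACs and 849705 with IL-4 + ACs, so 3 reads, the floor used here, stand there for normalized counts of 16.1 and 15.4, against 1.58 to 6.16 elsewhere. Each member's value in the IL-4 experiment is therefore also given without this pair, as are the counts of related genes that change. Of 8 eosinophil markers, 6 had more than 3 reads in at least 2 libraries of each group, Siglecf and Ccr3 among them. Epx did so only in both groups of the IL-4 experiment, and Ear2 did not with IFN-γ + E. coli + ACs. The summed normalized count was 4856 to 15307. The 8 macrophage markers were present too, at a sum of 6965 to 28121. In the groups without E. coli the complement genes C1qc and C1qb had the highest means. With E. coli + ACs, C1qc (2930) was followed by Adgre1 (2366). With IFN-γ + E. coli + ACs, Adgre1 was highest (2987, against 2337 for C1qc). One of the 8, Adgre1, is also made by mouse eosinophils. By qPCR the paper also found mRNA of Tim4 (Timd4) and, to a lesser extent, Mertk in peritoneal eosinophils. Its flow cytometry, however, found no TIM-4 protein on eosinophils. The methods state that purity was checked by flow cytometry after the second selection. Of 11 germ cell markers, Dazl, Tdrd9 and Nanos3 were at 0 in every group, and of 12 thymocyte markers the summed level was 45.5 to 180. In these bulk libraries, fewer cells of a type and less RNA per cell cannot be told apart.

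**Figure D1:**
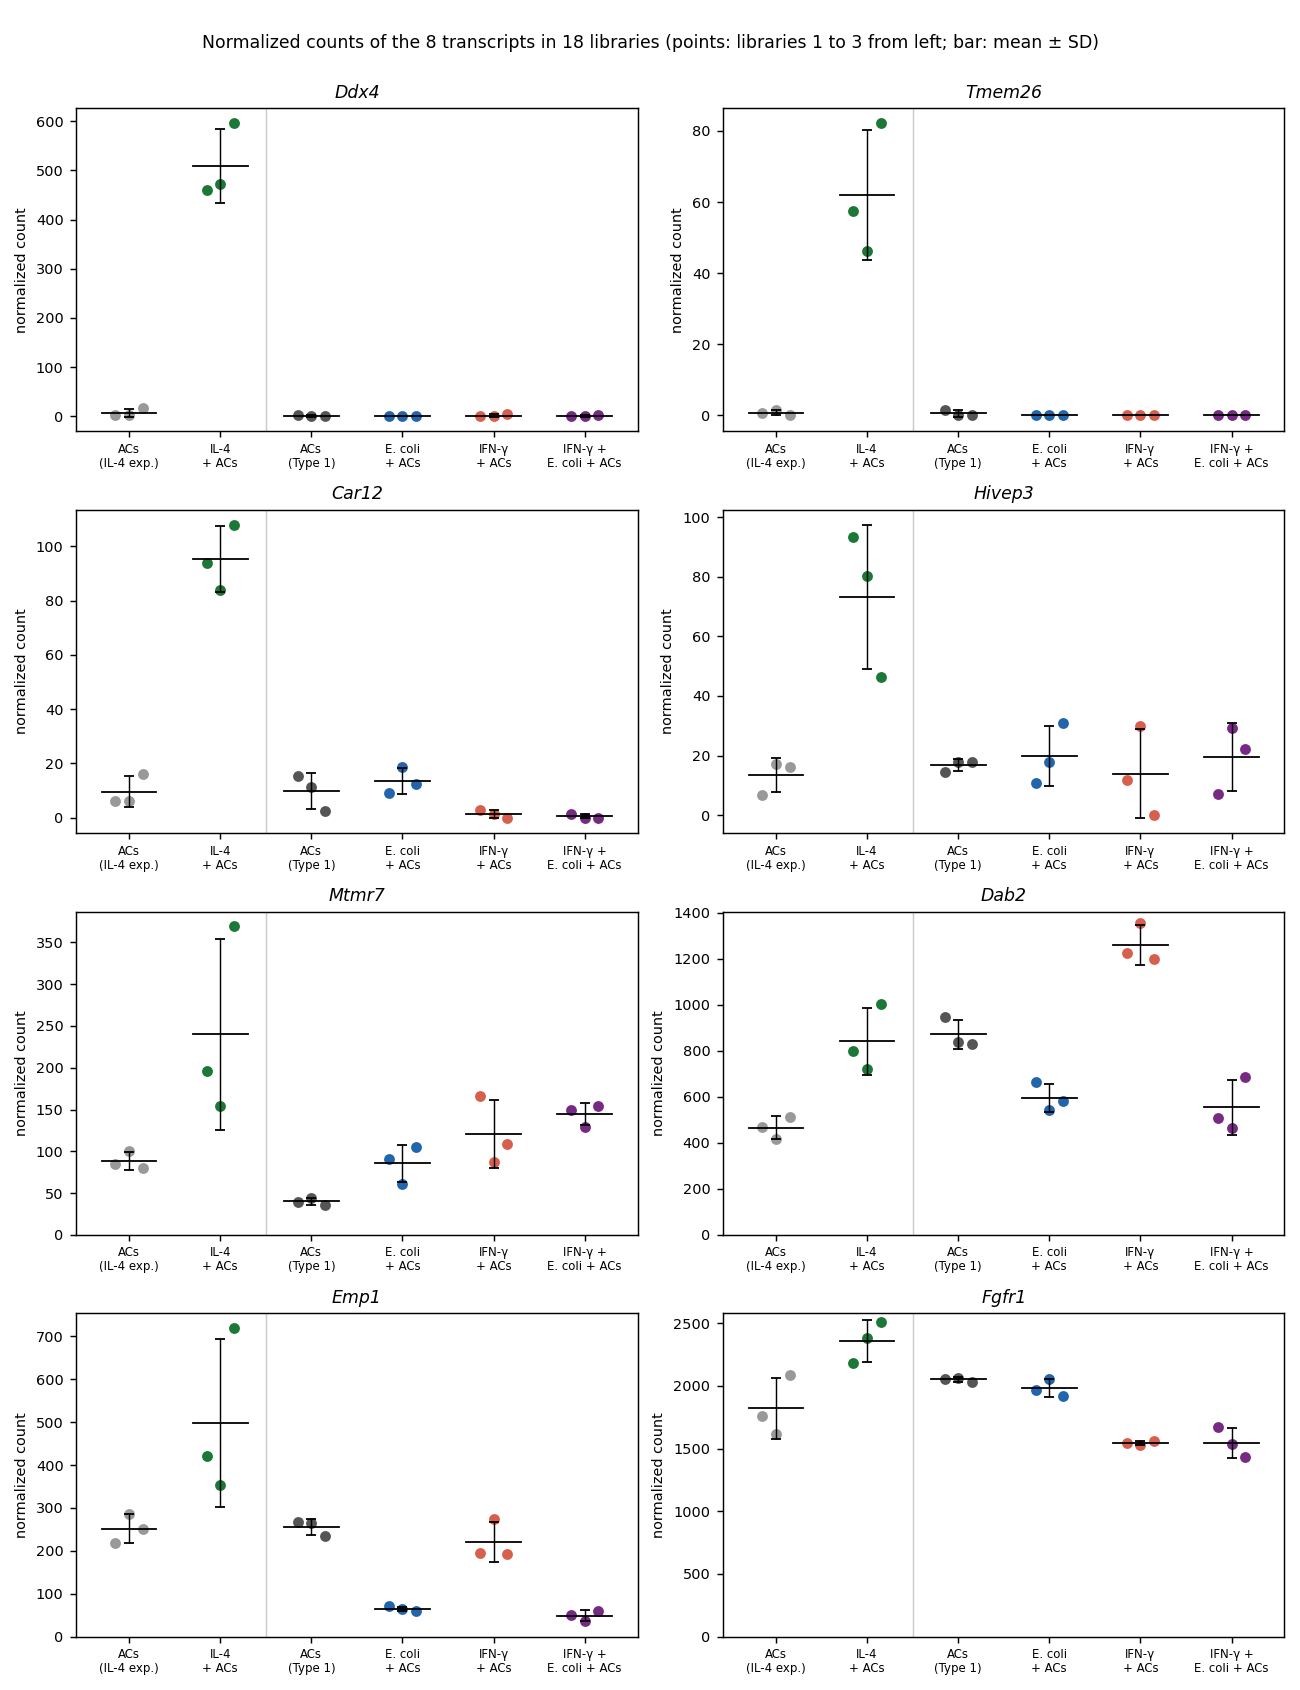
Normalized count (y axis, linear, a separate scale per gene) of each of the 8 transcripts in the 6 groups (x axis). Points are the 3 libraries of a group and bars the mean ± SD; the IL-4 + ACs points lie above the ACs points of the same experiment in all 8 panels, whereas in the Type 1 experiment Mtmr7 lies above its ACs and Emp1 below it with E. coli.

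With IL-4 + ACs every one of the 8 transcripts was higher in all 3 libraries than in any ACs library of the same experiment. The genes were chosen for this difference, so it is given as a description with no test. Across all 10669 genes fitted, 8.45% were higher without overlap between the groups. The fitted differences spanned a wide range, from a log2 fold change of 6.37 for Ddx4 to 0.38 for Fgfr1. By the rule used for all genes (limma, adjusted p under 0.05 and at least 1.5-fold), 5 of the 8 were past the threshold, all of them higher, where 1.09% of all genes were past it and 0.74% were higher. Since the rule picked the members from this comparison, nothing is read from these shares. Ddx4, Tmem26 and Car12 had ACs means below 10, so they reached the minimum mean of 10 through the IL-4 + ACs libraries. Fitted values are on the scale of log2(normalized count + 1). For low transcripts they can lie below or above the ratio of means. The fitted fold was 37.2 for Tmem26, where the ratio of means was 80.5, and 82.9 for Ddx4, where it was 71.3.

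**Figure D2:**
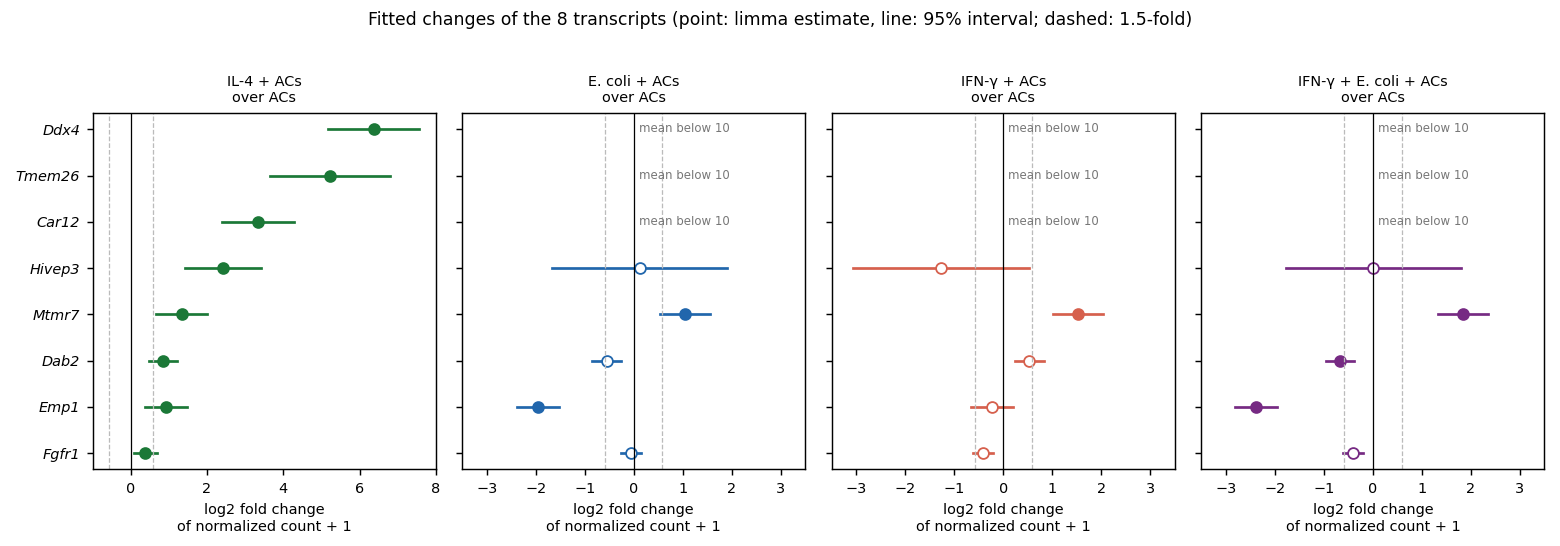
Log2 fold change of normalized count + 1 (x axis) of each transcript (y axis) with each stimulus over the ACs of its own experiment; points are limma estimates, lines 95% intervals and dashed lines 1.5-fold. In the IL-4 panel, which has its own x range, all points are filled and no test is implied; in the others filled points are past the threshold, as for Mtmr7 in all 3 and Emp1 in both panels with E. coli.

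Ddx4 (ENSMUSG00000021758.14) lies on the minus strand of chromosome 13 at chr13:112598333-112652475 and encodes a DEAD-box helicase needed for germ cells and for piRNAs, the small RNAs that silence transposons there. Its normalized counts with ACs were 2.26, 3.11 and 16.1, and with IL-4 + ACs they were 460, 473 and 596. The high ACs value is 3 reads in the shallow library, and the ACs libraries together held 10 reads against 1807 with IL-4 + ACs. The pooled ratio of reads, scaled for library size, was 133, with an exact 95% interval of 71.9 to 277 that covers counting error only. The fitted log2 fold change was 6.37 (SE 0.54), and 6.996 (SE 0.25) without the shallow pair. The ratio of the group means depended on that pair, at 71.3 with it and 174 without it.

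In the Type 1 experiment Ddx4 was nearly undetected. Its value was 2.44, 0 and 0 with ACs and 0 in all 3 E. coli + ACs libraries. It was 0, 0 and 4.10 with IFN-γ + ACs. The libraries with both stimuli gave 0, 0 and 2.76. No library held more than 3 reads, and the mean over the 12 libraries was 0.775, below the minimum for the limma test. With all genes above 0 tested, the log2 fold change was -0.59 with E. coli, 0.19 with IFN-γ and 0.04 with both (SE 0.64 each, adjusted p = 0.70, 0.96 and 1, limma). A fall from so low a level was not detectable at this depth.

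The genes known to act with Ddx4 were mostly below the minimum mean. Of 27 piRNA and germ cell genes listed, 7 were at 0 in all 18 libraries and 3 were tested in the IL-4 comparison, with a median log2 fold change of 0.92, that of Tdrkh, against -0.01 for all genes. Without the shallow pair the median turned to -0.35, over Tdrkh (-0.64) and Tdrd7 (-0.06), and Piwil2 was no longer tested. None of the 3 was past the threshold by limma, edgeR or DESeq2, and none had an unadjusted p under 0.05. They were named after their values were seen. Tdrd7, a Tudor domain protein also made outside germ cells, was at 271 ± 15.7 (SD, n = 3) with IL-4 + ACs and 269 ± 20.3 (SD, n = 3) with ACs. Piwil2, a PIWI protein that binds piRNAs, was at 19.8 ± 27.4 (SD, n = 3) and 3.83 ± 3.35 (SD, n = 3), with overlapping libraries. Tdrkh, another Tudor domain protein, was at 10.8 ± 3.96 (SD, n = 3) and 9.75 ± 9.73 (SD, n = 3), also with overlap. The summed germ cell markers, which do not include Ddx4, were at 17.3, 14.8 and 0 with ACs and 7.54, 15.8 and 51.4 with IL-4 + ACs. Both the 0 and the 51.4 are of the shallow pair, and the other libraries of the groups overlapped. Their part in the Ddx4 difference was not tested.

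Tmem26 (ENSMUSG00000060044.8) lies on the plus strand at chr10:68723646-68782650 and encodes a multipass membrane protein known as a surface marker of beige fat cells. Its normalized counts were 0.75, 1.56 and 0 with ACs and 57.4, 46.4 and 82.2 with IL-4 + ACs. The ACs libraries held 3 reads in all and the IL-4 + ACs libraries 203, a pooled ratio of 49.6 with an exact interval of 16.7 to 243 for counting error. By the fit, the log2 fold change was 5.22 (SE 0.71) and 4.63 (SE 0.47) without the shallow pair, and for so low a control it depends on the pseudocount. In the Type 1 experiment Tmem26 had 2 reads in a single ACs library, a normalized count of 1.63, and was at 0 in the other 11 libraries. A count of 0 allows up to 3 reads, which there stand for normalized counts of 2.45 to 6.16.

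Across the 18 libraries Ddx4 and Tmem26 had the closest pattern of any pair of the 8, with a Pearson r of 0.94 on the log2 scale. The 18 points share 6 groups and 2 experiments, so this r describes the groups more than it describes single libraries, and no test is given. Outside IL-4 + ACs no library held more than 4 reads of Ddx4 or 2 of Tmem26. The r therefore mainly restates the difference that both genes were picked for. Among 6907 genes with a mean of at least 50, the transcript most like Ddx4 was the chemokine Ccl7 (r = 0.96, 18 libraries), with means of 118 with ACs and 747 with IL-4 + ACs and 61.3 to 103 in the Type 1 groups. Next came Chil3, a chitinase-like protein (r = 0.95), with means of 7477 and 44702. Tmem26 was most like Gm5150 (r = 0.93) and Ccl7 (r = 0.92).

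Car12 (ENSMUSG00000032373.15), at chr9:66713686-66766845 on the plus strand, encodes a carbonic anhydrase anchored in the plasma membrane with its catalytic site outside the cell. The normalized counts were 6.02, 6.23 and 16.1 with ACs and 93.9, 83.8 and 108 with IL-4 + ACs. Its fitted log2 fold change was 3.33 (SE 0.42), and the pooled reads, 342 against 19, gave a ratio of 13.2 with an exact interval of 8.33 to 22.2. Without the shallow pair the log2 fold change was 3.65 (SE 0.30).

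Unlike Ddx4 and Tmem26, Car12 was measurable in part of the Type 1 experiment. It was at 15.4, 11.3 and 2.45 with ACs and at 9.21, 18.8 and 12.3 with E. coli + ACs, which overlap. It was at 2.64, 1.15 and 0 in the IFN-γ + ACs libraries. Those with both stimuli had 1.43, 0 and 0. The IFN-γ + E. coli + ACs libraries all lay below the ACs libraries, and those with IFN-γ + ACs overlapped them at one library. Pooled reads were 34 with ACs, 48 with E. coli, 3 with IFN-γ and 1 with both stimuli. The pooled ratio was 0.147 (exact interval 0.0288 to 0.467) with IFN-γ + ACs and 0.0461 (0.00110 to 0.275) with both, for counting error only. The mean over the 12 libraries was 6.23, below the minimum for the limma test. With all genes above 0 tested, the log2 fold change was -2.16 (SE 0.77, adjusted p = 0.078, limma) with IFN-γ + ACs and -2.72 (SE 0.77, adjusted p = 0.016) with both. With all 18 libraries in a single fit both were past the threshold (adjusted p = 0.025 and 0.0038).

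Of the other 15 carbonic anhydrase genes listed, 4 were tested. Only Car4, which is anchored to the outer membrane face by a lipid, was past the threshold with IL-4 + ACs, at 2987 ± 198 (SD, n = 3) against 1763 ± 148 (SD, n = 3), a log2 fold change of 0.76 (SE 0.12, adjusted p = 0.015, limma). The median over the 4 was 0.12, against -0.01 for all genes. With IFN-γ + ACs, Car4 fell by 2.68 on the log2 scale (SE 0.26, adjusted p = 2.3e-07, limma), and with both stimuli it fell by 3.30 (SE 0.26, adjusted p = 9.3e-09). Car13, a cytosolic member, showed 118 ± 17.8 (SD, n = 3) with IL-4 + ACs and 133 ± 55.2 (SD, n = 3) with ACs, but rose with each Type 1 stimulus, by 1.51, 1.31 and 1.27 on the log2 scale with E. coli, IFN-γ and both.

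The transcripts most like Car12 over the 18 libraries were Bcl2a1a, a survival gene of the BCL2 family with near-identical paralogs whose reads may be split, and Mrpl52 (r = 0.89 for each). Car12 and Fgfr1 had an r of 0.91, the next highest pair after Ddx4 and Tmem26. Bcl2a1a was also among the transcripts most like Fgfr1 (r = 0.87), and its mean was 2538 with IL-4 + ACs, 1685 with ACs in that experiment and 613 with IFN-γ + ACs.

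Hivep3 (ENSMUSG00000028634.17), at chr4:119733784-120138045 on the plus strand, encodes Schnurri-3, a zinc finger protein that binds κB-like DNA sites and is known from bone formation. Normalized counts were 6.77, 17.1 and 16.1 with ACs and 93.3, 80.1 and 46.3 with IL-4 + ACs. The lowest IL-4 + ACs value was 9 reads in the shallow library. On the fitted scale the log2 fold change was 2.41 (SE 0.45), and 2.88 (SE 0.37) without the shallow pair. The ACs libraries held 34 reads and the IL-4 + ACs libraries 322.

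No Type 1 stimulus moved Hivep3 beyond the spread of its libraries. It was at 14.6, 17.8 and 17.9 with ACs, at 10.9, 18 and 30.8 with E. coli, at 11.9, 29.8 and 0 with IFN-γ, and at 7.13, 29.3 and 22.1 with both. All groups overlapped. The log2 fold changes were 0.12 (adjusted p = 0.96, limma), -1.27 (adjusted p = 0.30) and 0.01 (adjusted p = 0.99). The SE was 0.85 each, so the 95% interval with E. coli ran from -1.67 to 1.91. With IFN-γ, where the lowest library was at 0, the ratio of means was 0.83. The pooled read ratio there was 0.986 (exact interval 0.63 to 1.52). Its paralogs Hivep1 and Hivep2, the 2 family members tested, had log2 fold changes of -0.09 and -0.01 with IL-4 + ACs. Neither was past the threshold by limma, edgeR or DESeq2 or had an unadjusted p under 0.05. Hivep2 rose by 0.64 with IFN-γ + ACs (adjusted p = 0.047, limma) and Hivep1 by 0.78 with both stimuli (adjusted p = 0.0011). The transcripts most like Hivep3 were Ttc19 (r = 0.79) and Qsox1 (r = 0.77), the weakest likeness found for any of the 8.

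Mtmr7 (ENSMUSG00000039431.16), at chr8:40551095-40634797 on the minus strand, encodes a myotubularin-related phosphatase that removes phosphate from inositol lipids and inositol phosphates. Its normalized counts were 84.2, 100.4 and 80.4 with ACs and 196, 154 and 370 with IL-4 + ACs. The highest value came from the shallow library, where it was 72 reads. The fitted log2 fold change was 1.34 (SE 0.30), and 0.91 (SE 0.18) without the shallow pair.

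Mtmr7 was the only one of the 5 genes tested in the Type 1 experiment that rose with every stimulus. In the Type 1 experiment it was at 39.9, 44.1 and 35.9 with ACs, at 90.4, 61.3 and 105 with E. coli, at 166, 87.1 and 109 with IFN-γ and at 149.7, 129 and 155 with both. Each stimulated library lay above all ACs libraries. The log2 fold change was 1.05 (SE 0.24, adjusted p = 0.0061, limma) with E. coli, 1.52 (SE 0.24, adjusted p = 9.4e-05) with IFN-γ and 1.83 (SE 0.24, adjusted p = 7.6e-06) with both. The departure from adding the single effects was -0.74 (SE 0.34, adjusted p = 0.21), and its 95% interval ran from -1.46 to -0.02. With ACs alone, Mtmr7 was lower in the Type 1 experiment than in the IL-4 experiment without overlap (means 39.9 and 88.4), so its IL-4 + ACs and IFN-γ + E. coli + ACs levels cannot be set against each other apart from the experiment.

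The 3′ end of Mtmr7 overlaps that of Vps37a, an endosomal sorting gene on the opposite strand, by 40 bases. CEL-Seq2 reads come from 3′ ends and the strand setting of the counting is not given in the sources used here, so reads of the pair cannot be fully told apart. The log2 fold change of Vps37a was 0.24 (adjusted p = 0.69, limma) with IL-4 + ACs, -0.18 (adjusted p = 0.52) with E. coli and 0.27 (adjusted p = 0.22) with IFN-γ. With both stimuli it rose by 0.70 (adjusted p = 0.0018), from a mean of 260 to 423.

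Of the other 13 myotubularin family genes, 12 were tested and none was past the threshold with IL-4 + ACs by limma, edgeR or DESeq2, with 1 at an unadjusted p under 0.05; their median log2 fold change was -0.16. With both Type 1 stimuli Mtmr6, which acts on endosomal lipids, rose by 0.72 (adjusted p = 0.00052, limma) and Sbf1, a catalytically inactive member, by 0.88 (adjusted p = 0.0014), whereas Mtm1 fell by 0.69 and Sbf2 by 0.64 (adjusted p = 0.036 for each). Over the 18 libraries Mtmr7 was most like Rnf19b, a ubiquitin ligase (r = 0.91), whose mean was 507 with ACs and 1758 with IL-4 + ACs, and 239 with Type 1 ACs against 532 to 1058 with the 3 stimuli. Next came the endosomal sorting nexin Snx3 (r = 0.88).

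Dab2 (ENSMUSG00000022150.16), at chr15:6299788-6440712 on the plus strand, encodes an adaptor that links receptors of the LDL receptor family to clathrin. The normalized counts were 467, 415 and 515 with ACs and 800, 722 and 1002 with IL-4 + ACs. By the fit, the log2 fold change was 0.84 (SE 0.16), and 0.79 (SE 0.11) without the shallow pair.

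Dab2 differed from ACs in opposite directions with the single Type 1 stimuli. It was at 946, 840 and 830 with ACs, at 664, 542 and 581 with E. coli and at 1227, 1358 and 1198 with IFN-γ + ACs. Neither stimulated group overlapped the ACs libraries. The log2 fold change was -0.55 (SE 0.14, adjusted p = 0.011, limma) with E. coli and 0.53 (SE 0.14, adjusted p = 0.0075) with IFN-γ, both short of the 1.5-fold threshold. E. coli passed it without the third ACs library (-0.59) or without the first E. coli + ACs library (-0.63), and IFN-γ passed it without the first ACs library (0.59).

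With IFN-γ + E. coli + ACs, Dab2 was at 510, 464 and 688, below all ACs libraries, and fell by 0.67 on the log2 scale (SE 0.14, adjusted p = 0.0008, limma). Without the second of these libraries it was -0.55 (adjusted p = 0.0044), short of 1.5-fold. E. coli changed Dab2 by -1.20 on the log2 scale in the presence of IFN-γ and by -0.55 in its absence. The difference, tested as an interaction after the values had been seen, was -0.65 (SE 0.20, adjusted p = 0.049, limma), where 7.44% of all genes were past the threshold and 4.28% were past it with a negative difference. It was no longer past the threshold under the replicate block (adjusted p = 0.056), under edgeR (0.061), with all 18 libraries fitted together (0.080) or with all genes above 0 tested (0.092). With ACs alone, Dab2 was 1.87 times as high in the Type 1 experiment as in the IL-4 experiment, without overlap, so its order across experiments cannot be told apart from the experiment.

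Of 21 other endocytic adaptors and cargo receptors of this kind, 17 were tested in the IL-4 comparison and none was past the threshold by limma, edgeR or DESeq2 or had an unadjusted p under 0.05. Their median log2 fold change was 0.02, and -0.10 without the shallow pair. In the Type 1 experiment 16 were tested. Lrp1, a large endocytic receptor of the LDL receptor family, fell by 1.00 with E. coli (SE 0.21, adjusted p = 0.0026, limma) and rose by 0.79 with IFN-γ (SE 0.21, adjusted p = 0.0084), where the Dab2 differences had the same signs. The adaptor subunit gene Ap2b1 rose with all 3 stimuli, by 0.82, 0.84 and 1.01. Counts past the threshold were 2 higher and 2 lower with E. coli (5.05% and 5.25% of all genes), 2 higher and none lower with IFN-γ (11.4% and 9.96%), and 5 higher and 1 lower with both (14.7% and 17.2%).

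Emp1 (ENSMUSG00000030208.15), at chr6:135362545-135383173 on the plus strand, encodes a membrane protein with 4 predicted spans related to the myelin protein PMP22. Normalized counts were 217, 285 and 252 with ACs and 422, 353 and 719.6 with IL-4 + ACs. The highest value was 140 reads in the shallow library. Its fitted log2 fold change was 0.92 (SE 0.25), and 0.63 (SE 0.15) without the shallow pair.

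Emp1 fell wherever E. coli was present. It was at 268, 264 and 234 with ACs, at 70.3, 64.6 and 60.7 with E. coli, at 194, 275 and 193 with IFN-γ and at 49.9, 36.6 and 60.7 with both. The 6 libraries with E. coli lay below every other library of either experiment. The log2 fold change was -1.95 (SE 0.20, adjusted p = 1.7e-06, limma) with E. coli and -2.38 (SE 0.20, adjusted p = 2.5e-08) with both, and -0.23 (SE 0.20, adjusted p = 0.45) with IFN-γ, whose 95% interval ran from -0.65 to 0.20. The departure from additive effects was -0.20 (SE 0.29, adjusted p = 0.74). ACs alone gave the same level in both experiments within their spread, at 255 ± 18.3 and 251 ± 33.8 (SD, n = 3 each).

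Among the 4 other genes of its family, Emp3 and Pmp22 were tested, with log2 fold changes of 0.01 and -0.32 with IL-4 + ACs; neither was past the threshold by limma, edgeR or DESeq2 or had an unadjusted p under 0.05. Emp3 fell by 0.71 with IFN-γ (SE 0.13, adjusted p = 0.00026, limma) and by 1.28 with both stimuli (SE 0.13, adjusted p = 1.6e-07). With E. coli alone its log2 fold change was -0.44 (adjusted p = 0.023), short of 1.5-fold. Pmp22 rose by 0.92 with IFN-γ (SE 0.15, adjusted p = 8.5e-05).

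Macrophage marker transcripts also differed in the Type 1 experiment. Their sum was lower in both E. coli groups, as were Dab2 and Emp1, and higher with IFN-γ, where Dab2 was higher and Emp1 overlapped its ACs libraries. The summed normalized count of the 8 markers was 13517 to 16848 with ACs, 6965 to 8161 with E. coli, 18286 to 25995 with IFN-γ and 7899 to 8047 with both. Most of the sum with ACs was C1qc and C1qb, with means of 8319 and 2580. Their means were 2930 and 1007 with E. coli, and 2337 and 1136 with both. Adgre1 went the other way, at 1806 with ACs, 2366 with E. coli (short of 1.5-fold) and 2987 with both. Mertk was also higher with both, at 387 against 253 with ACs. With E. coli 5 of the 8 fell and none rose, where 5.25% of all genes fell and 5.05% rose. With IFN-γ 3 rose and 1 fell, against 11.4% and 9.96% of all genes, and with both 4 fell and 2 rose, against 17.2% and 14.7%. The transcripts most like Dab2 over the 18 libraries were the chemokine Ccl12 (r = 0.93) and Ly86, a partner of an innate receptor of B cells and macrophages (r = 0.88). Those most like Emp1 were the phosphatase Dusp3 (r = 0.96) and the iron carrier Trf (r = 0.95). In the IL-4 experiment the marker sum was 19404 to 28121 with ACs and 16430 to 26394 with IL-4 + ACs, so the groups overlapped. There none of the 8 markers rose and 1, Vsig4, a complement receptor of resident macrophages, fell (log2 fold change -1.36, adjusted p = 0.031, limma). Without the shallow pair the sums were 19404 and 23184 with ACs and 17451 and 16430 with IL-4 + ACs. They no longer overlapped and lay lower with IL-4, and Timd4 rose (1.21) while Vsig4 (-1.23) and Mertk (-1.06) fell. Of all 10629 genes 345 rose and 311 fell in that setting, against 79 and 37 of 10669 with the pair. The part of these markers in the Dab2 and Emp1 differences was not tested.

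**Figure D3:**
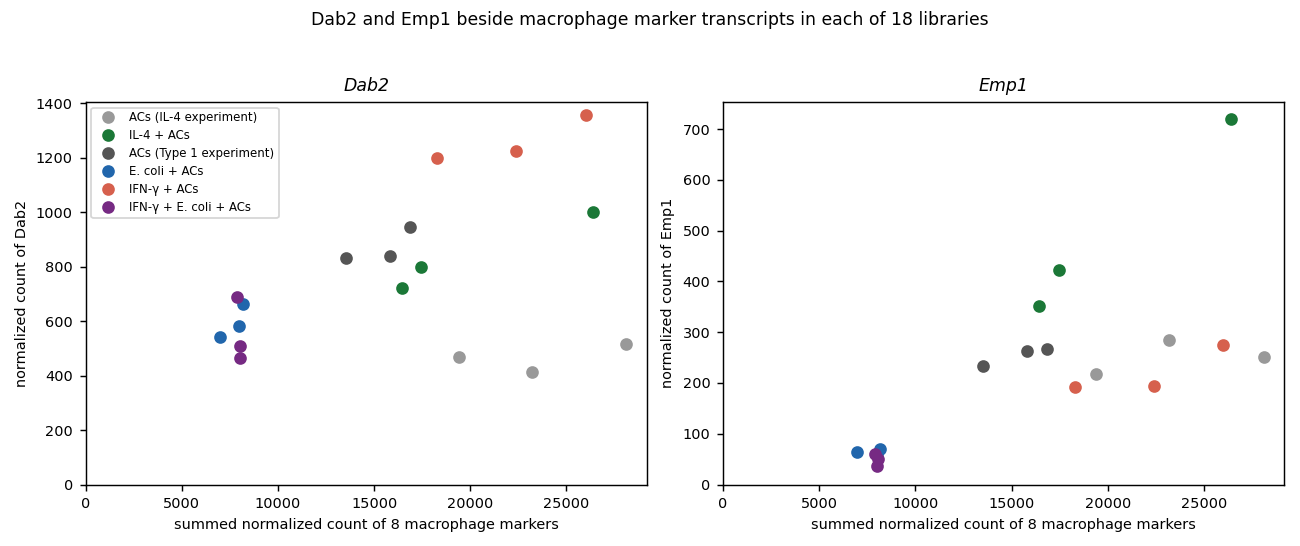
Normalized count of Dab2 (left) and Emp1 (right) against the summed normalized count of 8 macrophage markers (x axis), one point per library, coloured by group. The 6 libraries with E. coli lie at the left, with marker sums of 6965 to 8161; in the IL-4 experiment the IL-4 + ACs points lie above the ACs points, while the marker sums are 16430 to 26394 with IL-4 + ACs and 19404 to 28121 with ACs.

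Fgfr1 (ENSMUSG00000031565.18), at chr8:25513654-25575718 on the plus strand, encodes a receptor for fibroblast growth factors. Its coefficient of variation between libraries of a group was 0.96% to 13.3%. Its normalized counts were 1762, 1616 and 2091 with ACs and 2181, 2385 and 2508 with IL-4 + ACs. The gap between the highest ACs library and the lowest IL-4 + ACs library was therefore narrow, and the highest ACs value came from the shallow library. On the fitted scale the log2 fold change was 0.38 (SE 0.13), short of 1.5-fold, and 0.43 (SE 0.10) without the shallow pair.

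Fgfr1 was lower whenever IFN-γ was present. It was at 2059, 2067 and 2029 with ACs, at 1969.8, 2058 and 1921 with E. coli, at 1542, 1530.2 and 1559.6 with IFN-γ and at 1672, 1535 and 1432 with both. All 6 IFN-γ libraries lay below all 6 others of that experiment. The log2 fold change was -0.41 (SE 0.10) with IFN-γ (adjusted p = 0.0037, limma) and with both stimuli (adjusted p = 0.0025), short of 1.5-fold in each. With E. coli it was -0.05 (SE 0.10, adjusted p = 0.82), with a 95% interval of -0.25 to 0.15.

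None of the 22 genes for FGF ligands reached a mean of 10 in either experiment, and 8 were at 0 in all 18 libraries. Of 29 other FGF receptors, co-receptors, adaptors and feedback genes, 16 were tested in the IL-4 comparison, with a median log2 fold change of 0.19. None was past the threshold by limma, against 2 by edgeR and 1 by DESeq2, and 5 had an unadjusted p under 0.05. Without the shallow pair 3 rose, the adhesion protein gene Flrt3 (1.63), the syndecan gene Sdc4 (0.76) and Spred1 (0.65), an inhibitor of Ras signalling. Sdc3 (-0.67) was the 1 that fell. Calls were more frequent for all genes in that setting, at 345 higher and 311 lower of 10629. With the pair they were 79 and 37 of 10669. In the Type 1 experiment 15 were tested, and 3 rose and 1 fell with E. coli, where 5.05% and 5.25% of all genes did. With IFN-γ 4 rose and with both 5 rose, against 11.4% and 14.7% of all genes. Among them Dusp6, a phosphatase that turns off ERK, rose by 1.67 with both stimuli (SE 0.14, adjusted p = 1.6e-08, limma). Sdc3, a heparan sulphate co-receptor, fell by 0.87 with E. coli (adjusted p = 0.00076) and rose by 1.35 with IFN-γ (adjusted p = 2.4e-06). Fgfr1 itself was most like Gm44005 (r = 0.92).

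**Figure D4:**
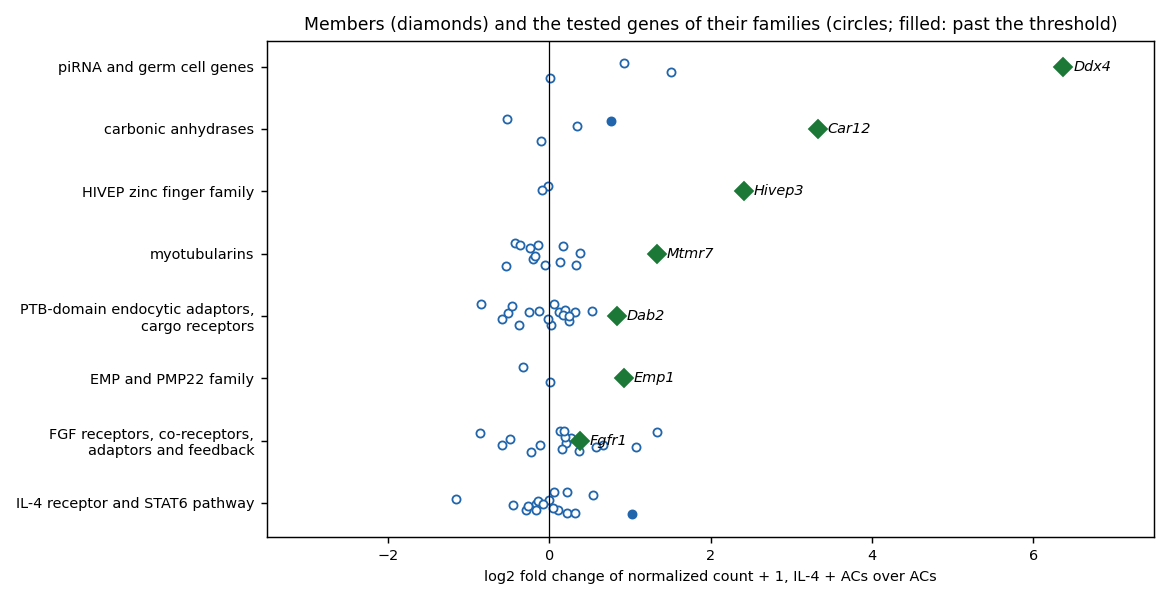
Log2 fold change of normalized count + 1 with IL-4 + ACs over ACs (x axis) for 7 of the 8 genes (diamonds) and for the tested genes of their families and of the IL-4 pathway (circles, filled where past the threshold); vertical offsets only separate points. Among the circles only Car4 and Cish are filled, and no circle lies beyond a log2 fold change of 1.51.

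Beside the 8 genes, 1 gene of the IL-4 pathway itself was past the threshold with IL-4 + ACs. Of 19 genes for IL-4 receptor chains, kinases, STATs and feedback proteins, 17 were tested, with a median log2 fold change of 0.00 against -0.01 for all genes. The STAT-induced feedback gene Cish was past the threshold, at 681 ± 31.5 (SD, n = 3) with IL-4 + ACs and 334 ± 29.4 (SD, n = 3) with ACs. Its log2 fold change was 1.03 (SE 0.14, adjusted p = 0.0063, limma), and no gene was past the threshold downward. Calls were 2 by edgeR and 1 by DESeq2, and 4 had an unadjusted p under 0.05. Without overlap 2 lay higher and 4 lower, where 8.45% of all genes lay higher. The share of all genes that lay lower is not given here, so nothing is read from the 4. Stat6 was among the lower (-0.45, adjusted p = 0.28, limma). Without the shallow pair it was at -0.54 (adjusted p = 0.015), short of 1.5-fold. Without the shallow pair, a choice made after seeing the data, 2 rose, Cish (0.97) and the PARP gene Parp14 (0.74), and 1 fell, the kinase gene Jak3 (-1.32). The median was then -0.09, and of all 10629 genes 345 were past the threshold higher and 311 lower. With both Type 1 stimuli 7 of the 17 rose and 1 fell, where 14.7% of all genes rose and 17.2% fell, among them the receptor chain Il13ra1, which rose by 2.49 (SE 0.23, adjusted p = 5.9e-08, limma).

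Markers of other cell types also differed with IL-4 + ACs. The mast cell markers summed to 189 to 300.2 with ACs and 497 to 720 with IL-4 + ACs. Of these 6 only Hdc, the histamine-forming enzyme, was tested, and it rose by 1.5 (adjusted p = 0.011, limma). The sum was mostly Hdc, with means of 206 and 578. The other 5 had lower means with IL-4 + ACs, as for the tryptase gene Tpsb2 (11.5 with ACs and 2.80 with IL-4 + ACs) and Cpa3 (6.85 and 1.60), and were not tested. The neutrophil markers summed to 301 to 407 with ACs and 76.5 to 83.3 with IL-4 + ACs, and Mmp8, a collagenase, fell by 2.27 (adjusted p = 0.00065, limma). That sum too was mostly 1 gene, Mmp8, with means of 325 and 66.4. None of the other 5 was tested, and Ly6g (4.36 and 5.39) and Ngp (2.02 and 4.05) were not lower with IL-4 + ACs. Of the 8 eosinophil markers the ribonuclease genes Ear2 and Ear6 rose, by 2.12 and 0.91 (adjusted p = 0.017 and 0.030). Without the shallow pair Ear2, Ear6, Hdc and Mmp8 kept their calls. The Ear genes have close paralogs, so their reads may be split. The part of these markers in the differences of the 8 genes was not tested.

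Taking the 3 Type 1 comparisons, which share their ACs libraries, 5 of the 8 genes could be tested. With E. coli 1 rose and 1 fell, where 10.3% of all 10166 genes were past the threshold, 5.05% higher and 5.25% lower. With IFN-γ 1 rose and none fell, where 21.4% were past it, 11.4% higher and 9.96% lower. With both stimuli 1 rose and 2 fell, where 31.9% were past it, 14.7% higher and 17.2% lower. Counted by libraries that did not overlap, 1 was higher and 2 lower with E. coli, against 19.9% and 18.4% of all genes. With IFN-γ 2 were higher and 1 lower, against 22.6% and 20.3%, and with both stimuli 1 was higher and 3 lower, against 23.9% and 24.8%. The order of the groups differed from gene to gene. It is given as a description with no test, since the genes were picked for IL-4 + ACs and the IL-4 and Type 1 groups come from separate experiments. IL-4 + ACs had the highest mean for 7 of the 8. Its libraries were apart from those of the next group for Ddx4, Tmem26, Car12, Hivep3, Emp1 and Fgfr1, and overlapped those of IFN-γ + E. coli + ACs for Mtmr7. For Dab2 the highest mean was with IFN-γ + ACs, at 1261 ± 85.3 (SD, n = 3), and IL-4 + ACs, at 841 ± 145 (SD, n = 3), overlapped the ACs libraries of the Type 1 experiment.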

How the data were processed

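The deposited values are a signal that the authors made with DESeq2, as reads per gene over a library size factor. Per the labels, reads were aligned to GRCm38 with TopHat2 2.1.0 and counted with HTSeq 0.6.1; the methods also describe a second pipeline, and the one behind this table is not given in the sources used here. Whole reads were recovered for 100.0% of the deposited values (tolerance 0.005 normalized counts). Replicates differed by more than counting error (chi-square per degree of freedom 3.92 to 13.15).

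Under R 4.3.3, limma 3.58.1 (lmFit, then eBayes with trend) was run on log2(normalized count + 1), for genes with a mean of at least 10, on the 6 libraries of the IL-4 experiment or the 12 of the Type 1 experiment. The threshold was a Benjamini-Hochberg adjusted p under 0.05 and 1.5-fold. Count tests on the recovered reads called 212 genes with IL-4 + ACs by edgeR 4.0.16 and 209 by DESeq2 1.42.0. With 3 libraries against 3, the smallest two-sided exact permutation p is 0.10. Read ratios carry exact 95% binomial intervals.

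The members and lists were chosen with earlier results of these data known. Genes named besides the 8 were, per list, those past the threshold with IL-4 + ACs, at most 4, the 2 most like each member by Pearson's r on log2 values (mean of at least 50), and markers; other list genes named were chosen after their values were seen. Symbols were matched for 54409 identifiers. The fits were tested on simulated data.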

Additional observations from a re-analysis of the deposited data

Results flagged for a closer look

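Ddx4, Tmem26 and Car12 were below the minimum mean for a test of whether the response to E. coli differed with IFN-γ. Of the 5 members tested, only Dab2 was past the threshold, at a log2 difference of -0.65 (SE 0.20, adjusted p = 0.049, limma). E. coli changed it by -0.55 without IFN-γ and by -1.20 with IFN-γ, and in both settings every E. coli library lay below every library without E. coli. IFN-γ changed it by 0.53 alone and by -0.12 with E. coli, where the libraries overlapped. The test was added after the values had been seen. The call was lost under the replicate block (adjusted p = 0.056), edgeR (0.061), a joint fit of 18 libraries (0.080) and with all genes above 0 tested (0.092), and when leaving out 1 library in most cases. DESeq2 kept it (0.033).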

How the results depend on the processing

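Alternatives were the replicate number as a block, edgeR, DESeq2, a pseudocount of 5, a minimum mean of 50, no minimum (all genes above 0), a common upper quartile, a joint fit of 18 libraries, dropping the fold threshold and omitting each replicate; leaving out the shallow pair and the interaction were added after seeing the data. Once group means were taken out, same-numbered libraries had an r from -0.089 to 0.085 over genes with a mean of at least 10. This cannot decide whether the numbers pair them. In the IL-4 experiment both libraries numbered 3 were shallow. Each also had the highest macrophage marker sum of its group, at 28121 with ACs and 26394 with IL-4 + ACs. The members were picked for their rise with IL-4 + ACs, so their counts in that comparison are a description with no test. With IL-4 + ACs, 5 members were past the threshold, 7 with all genes above 0, by DESeq2 and without the shallow pair, 6 by edgeR and with 18 libraries, 4 with the replicate block, 3 with a mean of at least 50 (6 tested) and 2 to 5 without 1 replicate. All genes past it were 116, against 208 with all genes above 0, 74 with the replicate block, 212 by edgeR, 209 by DESeq2, 221 with 18 libraries, 656 without the shallow pair and 47 to 130 without 1 replicate. With IFN-γ the 1 member became 2 with 18 libraries, 3 with no fold threshold and 1 to 2 without 1 replicate. The Dab2 interaction call (1 member) became 0 with all genes above 0, the replicate block, edgeR and 18 libraries, and 0 to 1 without 1 replicate; its 756 genes became 495 with 18 libraries and 400 to 1026 without 1 replicate.

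Hivep3 changed sign with E. coli (-0.24 without E. coli + ACs replicate 3, range without 1 replicate -0.24 to 0.47), with IFN-γ (0.17 without IFN-γ + ACs replicate 3, range -2.31 to 0.17), with both stimuli (-0.12 under the common upper quartile, range without 1 replicate -0.37 to 0.58) and in the interaction (range -0.28 to 2.19), as did the Fgfr1 interaction (range -0.0085 to 0.10). Under the common upper quartile the median of all genes with both stimuli moved from -0.05 to -0.18, and the share of calls that were higher from 46.1% to 34.4% (with IFN-γ from 53.4% to 43.7%). The cause of these changes was not tested. Ddx4, Tmem26 and Car12 had means below 10 in the Type 1 experiment and were tested there only with all genes above 0 or in the joint fit.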
